A study of Mus musculus with 35 samples.

Results

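Glucose handling genes of the mouse liver were examined: 34 genes that code for enzymes and transporters of glycolysis, gluconeogenesis, glycogen metabolism, lactate production and the pyruvate dehydrogenase step. The genes were chosen by symbol, and each was read from the probe set with the highest mean signal among those that the platform annotation gives to that gene alone. Of the 34 genes, 31 had such a probe set, and all 31 passed the filter on low signals and were tested among 12670 genes. Gpi1, Pfkfb1 and Eno1 are not analysed here. The 31 genes comprise 11 isoforms or enzymes typical of liver, 12 glycolytic isoforms not particular to liver and 8 further genes. Each value is the signal of 1 probe set in the left lateral lobe of the liver of 1 BALB/c mouse, taken 6 h after an intravenous injection. The mice had been randomly assigned to 7 groups of 5. The groups received silica particles of 3 sizes, called SP30 (10 mg/kg), SP70 (10, 20 or 40 mg/kg) and SP300 (10 or 200 mg/kg), or deionized water as the control. The labels give neither sex nor age. One experiment varied the dose of SP70. The other varied particle size, first with 10 mg/kg of each and then with doses chosen as toxic from the study's own earlier histopathology and serum tests, which were 10 mg/kg of SP30, 40 mg/kg of SP70 and 200 mg/kg of SP300.

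Liver takes up glucose through a high-capacity transporter, stores it as glycogen, burns part of it by glycolysis, and between meals releases glucose made from glycogen or from lactate, glycerol and amino acids. Hepatocytes use their own isoforms at several steps, such as the pyruvate kinase encoded by Pklr and the glycogen synthase encoded by Gys2, whereas most other cells, including leukocytes, use forms such as Pkm and Hk1. Many genes of the second kind are known targets of hypoxia-inducible factors, and the pyruvate dehydrogenase kinases decide how much pyruvate enters the mitochondrial acetyl-CoA pool.

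The median signal of an array lay between 149 and 180, and no pair of arrays was identical. Arrays of 1 group correlated at 0.962 to 0.976 in log2 signal across the 12670 genes tested. Of 12 hepatocyte markers, 11 were measured, and none of these had a group mean below the filter of 165 in any group, which is the median of all values. Changes are given as log2 fold changes of signal + 12.5 with the standard error (SE), n = 5 mice per group, from limma fitted to all 35 arrays. A gene is said to have risen or fallen when limma's Benjamini-Hochberg adjusted p over all 12670 genes was under 0.05. The 6 comparisons with control use the same 5 control mice. Signals of different probe sets are not on a common scale, so no gene's level is set against another's. Marker signals are summed only to compare groups, and the brightest probe sets weigh most in such a sum. In whole liver, fewer cells of a type and less RNA per cell cannot be told apart. The array holds no detection or saturation calls. Signals above 48037 are the brightest 0.5% of all values, and whether the array still responded in proportion there was not tested; Fbp1, Gapdh, Ldha and Pck1 had mice in that range.

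After SP70, 5 of the 31 genes had changed at 10 mg/kg (3 higher, 2 lower), 21 at 20 mg/kg (5 higher, 16 lower) and 22 at 40 mg/kg (9 higher, 13 lower). Across all genes tested, the shares past the same threshold at these doses were 18.2% (12.5% higher, 5.7% lower), 39.8% (18.8% higher, 20.9% lower) and 44.4% (15.6% higher, 28.8% lower). SP30 at 10 mg/kg changed 25 genes (10 higher, 15 lower), where 49.3% (18.1% higher, 31.3% lower) of all genes passed. SP300 at 200 mg/kg changed 19 (5 higher, 14 lower), where 30.7% (12.6% higher, 18.1% lower) of all genes passed. SP300 at 10 mg/kg changed 0 of the 31 genes by limma, with 5 at an unadjusted p under 0.05, and 1.17% (0.923% higher, 0.245% lower) of all genes passed. The share of these genes that changed was thus above that of all genes at 20 and 40 mg/kg of SP70, with SP30 and with SP300 at 200 mg/kg, and not at 10 mg/kg of SP70 or SP300. Without control mouse 2 the count for SP70 at 10 mg/kg was 3 genes, and without mouse 2 of the SP300 200 mg/kg group its count was 12. Centring each array on its median gave 6 higher and 8 lower for SP300 at 200 mg/kg, and quantile normalization gave 3 higher and 4 lower for SP70 at 10 mg/kg.

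**Figure D1:**
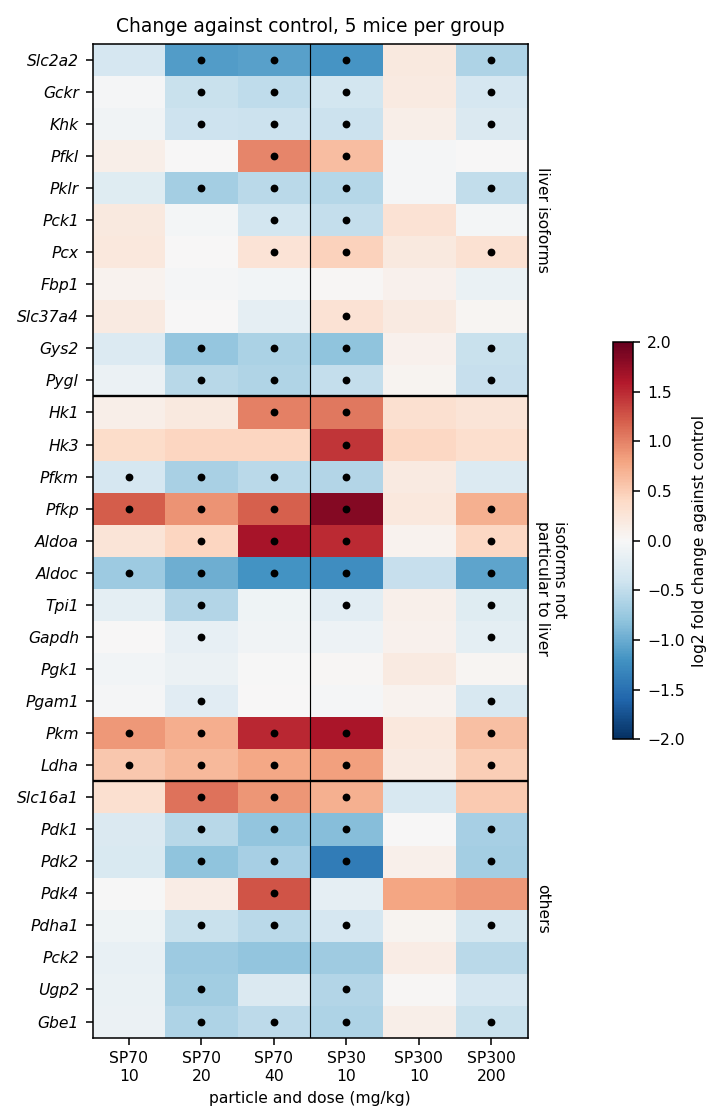
Log2 fold change against control (colour, from blue for lower to red for higher) of the 31 genes in rows, for the 6 treated groups in columns, with a dot where the adjusted p was under 0.05. Aldoa, Pkm and Pfkp are red in the SP70 40 mg/kg and SP30 columns, at 1.19 to 1.84, most liver isoforms are blue there, and the SP300 10 mg/kg column holds no dot.

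More of the 11 liver isoforms fell than rose, and more of the 12 isoforms not particular to liver rose than fell at the doses of SP70 and SP30 with the most changes. At 40 mg/kg of SP70, liver isoforms rose in 2 cases and fell in 7, with a median log2 fold change of −0.43, whereas the other isoforms rose in 5 and fell in 2, with a median of 0.22. The median of all genes tested in that comparison was −0.09. After SP30, liver isoforms rose in 3 and fell in 7 (median −0.43), the other isoforms rose in 6 and fell in 3 (median 0.42), and the median of all genes was −0.12. At 20 mg/kg of SP70 the liver isoforms rose in 0 and fell in 6 (median −0.41), and the others rose in 4 and fell in 5 (median 0.04), against a median of −0.03 over all genes. SP300 at 200 mg/kg gave 1 rise and 6 falls among liver isoforms (median −0.28) and 4 rises and 4 falls among the others (median 0.15), against −0.06 over all genes. At 10 mg/kg of SP70 no liver isoform passed the threshold, and the others rose in 3 and fell in 2. The difference between the sets was not tested, and within each set single genes went both ways: Pfkl and Pcx rose among liver isoforms, and Aldoc and Pfkm fell among the others. Of all genes, 28.8% fell and 15.6% rose at 40 mg/kg of SP70. With SP30 31.3% fell and 18.1% rose, and with SP300 at 200 mg/kg 18.1% fell and 12.6% rose. Of 11 hepatocyte markers, 3 fell at 40 mg/kg of SP70, and 1 fell and 2 rose with SP30. With SP300 at 200 mg/kg, 5 of the markers fell and 1 rose. Their summed signal ran from 585879 to 704185, 683335 to 761956 and 613274 to 694564 in these groups, against 685382 to 718484 in control mice, and its part in the falls of liver isoforms was not tested.

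**Figure D2:**
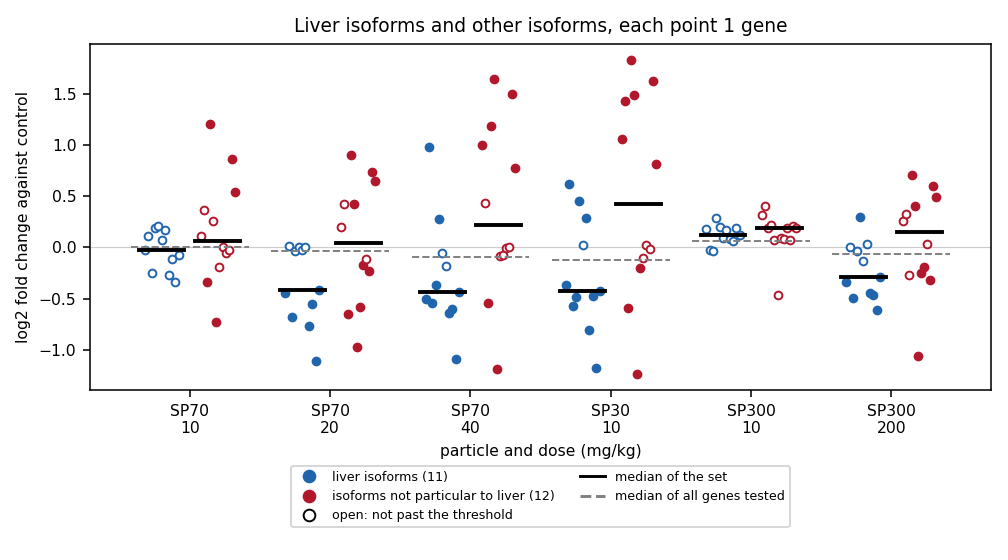
Log2 fold change against control (vertical axis) of the 11 liver isoforms (blue) and the 12 isoforms not particular to liver (red), each point 1 gene, for each treated group; filled points passed the threshold, black bars are set medians and dashed lines the median of all genes tested. At 40 mg/kg of SP70 the medians are −0.43 for the liver isoforms and 0.22 for the others, and both sets spread to either side of 0.

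Aldoa, the aldolase of muscle and most tissues, had the steepest rise of the 31 genes over the dose of SP70. Its signals were 4418, 4547, 4144, 4938 and 4918 in control mice and 5847, 5865, 5990.2, 4744 and 5082 at 10 mg/kg of SP70. They were 5792, 5875, 6699, 6196 and 6208 at 20 mg/kg and 12836, 10481, 16933, 16669 and 15977 at 40 mg/kg. Every mouse at 20 mg/kg lay above the highest control mouse, and every mouse at 40 mg/kg lay above every mouse at the lower doses. The log2 fold changes at 10, 20 and 40 mg/kg were 0.26 ± 0.12 (adjusted p = 0.128), 0.42 ± 0.12 (adjusted p = 0.00359) and 1.64 ± 0.12 (adjusted p = 1.06e-13). With SP30 the mice had 14865, 15501, 14618, 9251 and 11460.5, a log2 fold change of 1.49 ± 0.12 (adjusted p = 8.72e-13). SP300 mice had 5568, 5024, 4727, 4468 and 4433 at 10 mg/kg and 6127, 6120.4, 6194, 5555 and 6508 at 200 mg/kg, where Aldoa rose by 0.41 ± 0.12 (adjusted p = 0.00659). The SP300 200 mg/kg mice all stood above the control mice and below every mouse given SP30 or 40 mg/kg of SP70. All 5 kept Aldoa probe sets rose at 40 mg/kg of SP70 and after SP30. The probe sets used for Aldoa, Hk3, Tpi1, Pgk1 and Ugp2 carry the ending that marks probes shared with other transcripts, so near-identical copies may add to these 5 signals.

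Pkm, the pyruvate kinase of most tissues other than liver, rose in every treated group except SP300 at 10 mg/kg. Its signals were 319, 280.4, 134, 150.0 and 329 in control mice, 435, 475, 436, 478 and 322 at 10 mg/kg of SP70 and 331, 455, 365, 495 and 314 at 20 mg/kg. At 40 mg/kg they were 677, 728, 552, 742 and 649, and with SP30 744, 812, 847, 621 and 638. Neither of these groups overlapped the control mice, whose own signals were low, with 2 of 5 below 165. The log2 fold changes were 0.87 ± 0.20, 0.73 ± 0.20 and 1.50 ± 0.20 over the SP70 doses (adjusted p = 0.00156, 0.00327 and 1.41e-07) and 1.63 ± 0.20 with SP30 (adjusted p = 2.35e-08). SP300 mice had 332, 182, 315, 233 and 294 at 10 mg/kg and 386, 411, 347, 252 and 378 at 200 mg/kg. The rise at 200 mg/kg was 0.60 ± 0.20 (adjusted p = 0.0213). It no longer passed without control mouse 3 (0.42, adjusted p = 0.109), control mouse 4 (0.46, adjusted p = 0.0913) or mouse 2 of the SP300 group (0.54, adjusted p = 0.0589). It was also lost with only this group and control fitted (adjusted p = 0.102).

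Pfkp, the platelet-type phosphofructokinase, had the largest rise among the 31 genes, with SP30. Its signals were 272, 149, 89.2, 160.5 and 150.1 in control mice, of which 4 of 5 lay below 165, and 347, 476, 312, 351 and 405 at 10 mg/kg of SP70. At 20 and 40 mg/kg they were 350.2, 340.4, 339, 194 and 307, and 355, 346, 394, 377 and 377. With SP30 they were 479.6, 842, 610.0, 451 and 617. All SP30 mice and all mice at 10 and 40 mg/kg of SP70 exceeded the highest control mouse. The log2 fold changes were 1.21 ± 0.25, 0.90 ± 0.25 and 1.19 ± 0.25 over the SP70 doses (adjusted p = 0.000508, 0.00406 and 0.00019) and 1.84 ± 0.25 with SP30 (adjusted p = 1.85e-07). SP300 mice had 174, 70.6, 269, 279.8 and 205 at 10 mg/kg and 215, 306, 271, 213 and 313 at 200 mg/kg, a change of 0.71 ± 0.25 (adjusted p = 0.0309) at the higher dose. That last call was lost without any 1 of 3 control mice (2, 3 and 5) or of 3 SP300 mice (2, 3 and 5), with adjusted p of 0.0502 to 0.126 and log2 fold changes of 0.52 to 0.69. It was also lost with only this group and control fitted (adjusted p = 0.0568). The muscle phosphofructokinase Pfkm fell, at −0.65 ± 0.11, −0.54 ± 0.11 and −0.59 ± 0.11 at 20 and 40 mg/kg of SP70 and with SP30. Its call at 10 mg/kg of SP70 (−0.34 ± 0.11, adjusted p = 0.034) was lost without control mouse 1, 2 or 4 or SP70 mouse 1 or 4 (−0.26 to −0.34, adjusted p = 0.0531 to 0.144). That Pfkm call was also lost with no filter on low signals and with only this group and control fitted (adjusted p = 0.0549 and 0.0746).

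Hk1, the hexokinase of most tissues, rose at 40 mg/kg of SP70 and with SP30. Its signals were 407, 486, 374, 399 and 567 in control mice, 397, 715, 569.7, 360.5 and 433 at 10 mg/kg of SP70, 583, 503, 513, 453 and 505 at 20 mg/kg and 1091, 718, 862, 1271 and 669.5 at 40 mg/kg. With SP30 they were 1045, 1137, 785, 788 and 961. Both groups in which Hk1 rose stood above all control mice, at 1.00 ± 0.18 for SP70 (adjusted p = 1.59e-05) and 1.06 ± 0.18 for SP30 (adjusted p = 5.49e-06). SP300 mice had 516, 521, 487, 688 and 579.7 at 10 mg/kg and 379, 515, 610.4, 692 and 507 at 200 mg/kg, and both groups overlapped the control mice.

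Hk3, a hexokinase of blood cells, rose with SP30 and passed the threshold against control in no other group. SP30 mice had 713, 608, 591, 622 and 614, against 316, 255, 79.2, 213 and 396 in control mice. The rise was 1.44 ± 0.28 (adjusted p = 6.29e-05), and no SP30 mouse overlapped the control mice. SP70 mice had 161, 471, 280.5, 384 and 258 at 10 mg/kg, 522, 205, 353, 247 and 278 at 20 mg/kg and 302, 236, 306, 435 and 288 at 40 mg/kg. SP300 mice had 286, 367, 369, 209 and 309 at 10 mg/kg and 246, 372, 227, 277 and 326 at 200 mg/kg. These 5 groups overlapped the control mice, and SP30 stood above each of the groups it was tested against, by 1.07 ± 0.28 over SP70 at 10 mg/kg, 1.00 ± 0.28 over 40 mg/kg, 1.03 ± 0.28 over SP300 at 10 mg/kg and 1.11 ± 0.28 over 200 mg/kg (adjusted p = 0.00387, 0.0272, 0.00251 and 0.00311). Its other kept probe set also rose with SP30, by 0.57.

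Neutrophil markers, several of which rose in every group except SP300 at 10 mg/kg, were read beside these isoforms. Summed over 11 measured markers, their signals ran from 19290.3 to 27448 at 10 mg/kg of SP70, 20031 to 31192 at 20 mg/kg and 27634 to 65796 at 40 mg/kg. They ran from 50627 to 68763 with SP30 and, with SP300, from 1755 to 2787 at 10 mg/kg and 11152 to 26330.1 at 200 mg/kg, against 1516 to 3573 in control mice. Of the 11, 6, 7 and 9 rose over the SP70 doses, 9 with SP30, 5 with SP300 at 200 mg/kg and 0 with SP300 at 10 mg/kg. In level, 8 had a mean below 165 in control mice, and Mpo had one below it in every group. Hk1 was at 0.12 and 0.20 at 10 and 20 mg/kg of SP70 and at 0.26 with SP300 at 200 mg/kg. Hk3 was at 0.43 at 40 mg/kg of SP70, and none of these changes passed the threshold. At 10 and 20 mg/kg of SP70 and with SP300 at 200 mg/kg, Pkm was at 0.87, 0.73 and 0.60, and all passed. Pfkp was at 1.21, 0.90 and 0.71 there and passed too, the SP300 calls of both genes being lost without some mice. Monocyte markers rose in 8 of 8 at 10 and 20 mg/kg of SP70 and with SP30, in 7 at 40 mg/kg and in 5 with SP300 at 200 mg/kg. Kupffer cell markers fell in 8, 10 and 10 of 11 over the SP70 doses, in 9 with SP30, in 0 with SP300 at 10 mg/kg and in 10 at 200 mg/kg. Their sums ran from 10425 to 17650.5, 2829.6 to 5175 and 1866 to 3057 over the SP70 doses. They ran from 8252 to 18607 with SP30, 29695 to 42782 with SP300 at 10 mg/kg and 1928 to 2347 at 200 mg/kg, against 26993 to 39043 in control mice. Endothelial markers fell in 6 of 9 at 40 mg/kg of SP70 and with SP30, and in 4 with SP300 at 200 mg/kg. Their sums ran from 14667 to 21574, 15770.1 to 19032 and 4595 to 12135 over the SP70 doses. They ran from 7074 to 12406 with SP30, 24712 to 27376 with SP300 at 10 mg/kg and 7845 to 17851 at 200 mg/kg, against 17563 to 26112 in control mice. Of all genes, 12.5%, 18.8% and 15.6% rose over the SP70 doses, 18.1% with SP30 and 0.923% and 12.6% with SP300 at 10 and 200 mg/kg. In the same order of groups, 5.7%, 20.9%, 28.8%, 31.3%, 0.245% and 18.1% of all genes fell. The part of neutrophils, monocytes, Kupffer cells and endothelial cells in the changes of Pkm, Pfkp, Hk1, Hk3 and Aldoa was not tested.

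Gapdh, which codes for glyceraldehyde-3-phosphate dehydrogenase and is widely used to scale expression data, had 49731, 53194, 51053, 50067 and 51014 in control mice and 51655, 47413, 51442, 49056 and 56176 at 10 mg/kg of SP70. It had 45907, 43807, 53059, 42554 and 42524 at 20 mg/kg and 52685, 44328, 48706, 50989.8 and 45657 at 40 mg/kg. SP30 mice had 46447, 50417, 47326, 44317 and 48929.6. The SP30 and SP70 groups overlapped the control mice, and only the fall at 20 mg/kg of SP70 passed, at −0.17 ± 0.06 (adjusted p = 0.0233). SP300 mice had 54942, 57416, 55651, 50967 and 51146 at 10 mg/kg and 44794, 42365, 46665, 42704 and 47055 at 200 mg/kg, where all 5 lay below the lowest control mouse (−0.19 ± 0.06, adjusted p = 0.0134). The fall at 20 mg/kg was lost without control mouse 2 or without SP70 mouse 2, 4 or 5 (−0.14 to −0.15, adjusted p = 0.0565 to 0.0732) or with no filter on low signals (adjusted p = 0.0526), and that with SP300 was lost when arrays were centred on their medians (−0.14, adjusted p = 0.194). With SP30 Gapdh was at −0.10 ± 0.06 (adjusted p = 0.148) and passed under quantile normalization (−0.14, adjusted p = 0.0377). At 10 mg/kg of SP70 and of SP300 it was at 0.00 and 0.08, and quantile normalization turned both signs (−0.10 and −0.02). Gapdh was read from the manufacturer's control probe set for the 5' end of its transcript, and its signals are among the brightest of the array. The same probe set is the lower term of the 3' over 5' ratio of Gapdh given below. Pgk1, the phosphoglycerate kinase gene, passed the threshold in no comparison with control, with changes of −0.11 to 0.19, and its 95% interval at 40 mg/kg of SP70 was −0.17 to 0.16. Triosephosphate isomerase (Tpi1) fell, at −0.58 ± 0.08 at 20 mg/kg of SP70 but was at −0.08 ± 0.08 at 40 mg/kg. With SP300 at 200 mg/kg Tpi1 fell, at −0.25 ± 0.08 (adjusted p = 0.0238), a call lost with centred arrays (adjusted p = 0.150) and without control mouse 2 or SP300 mouse 2 (adjusted p = 0.0636 and 0.0698). With SP30 it was at −0.20 ± 0.08 (adjusted p = 0.0455), a call lost under quantile normalization, with centred arrays, for the mean of its probe sets, with no filter on low signals and without any 1 of control mice 2 to 5 or SP30 mice 3 to 5 (adjusted p = 0.0555 to 0.129). Phosphoglycerate mutase (Pgam1) fell, at −0.23 ± 0.07 at 20 mg/kg and −0.31 ± 0.07 with SP300 at 200 mg/kg.

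Aldoc, the aldolase isoform of brain, fell in every treated group except SP300 at 10 mg/kg. Its signals were 2365, 2432, 2129.6, 2395 and 1495 in control mice, 1357, 923, 1867, 1011 and 1469 at 10 mg/kg of SP70 and 1232, 1161, 937, 1382 and 791 at 20 mg/kg. They were 1024, 785, 1373, 724 and 854 at 40 mg/kg and 1224, 863, 1043, 642 and 807 with SP30. At 20 and 40 mg/kg of SP70 and with SP30 all mice lay below the lowest control mouse, with log2 fold changes of −0.97 ± 0.24, −1.19 ± 0.24 and −1.24 ± 0.24 (adjusted p = 0.00129, 0.000105 and 5.16e-05). SP300 mice had 975, 2105, 1452, 1798 and 1638 at 10 mg/kg and 1473, 556, 1661, 932 and 853 at 200 mg/kg, where Aldoc fell, at −1.06 ± 0.24 (adjusted p = 0.000822). The fall at 10 mg/kg of SP70, −0.73 ± 0.24 (adjusted p = 0.0303), was lost without control mouse 1, 2, 3 or 4 or SP70 mouse 2 or 4 (−0.61 to −0.73, adjusted p = 0.0525 to 0.0971). Aldoa rose and Aldoc fell in the same livers at 20 and 40 mg/kg of SP70, with SP30 and with SP300 at 200 mg/kg.

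Both genes of lactate handling rose. Ldha, the lactate dehydrogenase subunit that favours lactate formation, rose by 0.55 ± 0.08, 0.65 ± 0.08 and 0.78 ± 0.08 over the SP70 doses, by 0.82 ± 0.08 with SP30 and by 0.50 ± 0.08 with SP300 at 200 mg/kg (adjusted p at most 8.74e-06). Ldha signals ran from 52566 to 64342 at 40 mg/kg of SP70 and 59266 to 64084 with SP30, against 32267 to 39555 in control mice, and all mice of both treated groups were in the brightest 0.5%. At 10 mg/kg of SP70 they ran from 42732 to 58073, already without overlap with the control mice.

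Slc16a1, the lactate and pyruvate transporter MCT1, had 10583, 11722, 6082, 5974 and 9972 in control mice and 14928, 9923, 6338, 10902 and 13249 at 10 mg/kg of SP70. It had 15307, 16338, 14211, 25328 and 21373 at 20 mg/kg and 14614, 13578, 12619.8, 16706 and 22957 at 40 mg/kg. SP30 mice had 18422, 13183, 12380.0, 11923 and 14784. All mice of the last 3 groups exceeded the highest control mouse, with rises of 1.08 ± 0.22, 0.88 ± 0.22 and 0.71 ± 0.22 (adjusted p = 0.000186, 0.00151 and 0.00853). SP300 mice had 6625, 7661, 5685, 10415 and 4988 at 10 mg/kg and 8113, 14064, 11360.1, 12969 and 16268 at 200 mg/kg, with 0.52 ± 0.22 at the higher dose (adjusted p = 0.0767), which passed without control mouse 2 (0.64, adjusted p = 0.0400) or SP300 mouse 1 (0.67, adjusted p = 0.0256), and when arrays were centred on their medians (0.58, adjusted p = 0.0387).

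Promoters were searched for ACGTG, a form of the core of the element bound by hypoxia-inducible factors. The search covered both strands of the 250 bases before each annotated start in RefSeq's GRCm38.p6 promoter table. Other forms of the core were not searched, so genes without a match may hold them. The windows of 4 genes are shown because these rose (Ldha, Aldoa), did not pass the threshold against control (Pgk1) or fell (Slc2a2) at 40 mg/kg of SP70. For each gene the first start whose window holds the motif was taken, or the first start where none does, and matches are in capitals. The windows are chr7:46845554-46845803 (plus strand), chr7:126799255-126799504 (minus strand), chrX:106186850-106187099 (plus strand) and chr3:28697653-28697902 (plus strand), read 5′ to 3′ along the gene.
Ldha: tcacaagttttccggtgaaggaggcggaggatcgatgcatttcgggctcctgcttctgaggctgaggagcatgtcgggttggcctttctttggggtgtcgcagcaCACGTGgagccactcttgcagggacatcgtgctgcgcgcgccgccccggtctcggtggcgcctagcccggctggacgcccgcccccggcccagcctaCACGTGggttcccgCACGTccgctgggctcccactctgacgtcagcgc
Aldoa: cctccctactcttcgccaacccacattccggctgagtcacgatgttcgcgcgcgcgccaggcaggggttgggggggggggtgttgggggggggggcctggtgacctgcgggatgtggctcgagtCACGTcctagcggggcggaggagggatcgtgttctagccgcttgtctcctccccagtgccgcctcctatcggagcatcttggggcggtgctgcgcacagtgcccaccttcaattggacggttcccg
Pgk1: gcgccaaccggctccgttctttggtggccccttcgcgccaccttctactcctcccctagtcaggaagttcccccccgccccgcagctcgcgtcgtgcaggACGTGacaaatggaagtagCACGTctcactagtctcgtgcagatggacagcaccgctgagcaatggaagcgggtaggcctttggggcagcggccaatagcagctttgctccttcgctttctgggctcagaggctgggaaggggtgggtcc
Slc2a2: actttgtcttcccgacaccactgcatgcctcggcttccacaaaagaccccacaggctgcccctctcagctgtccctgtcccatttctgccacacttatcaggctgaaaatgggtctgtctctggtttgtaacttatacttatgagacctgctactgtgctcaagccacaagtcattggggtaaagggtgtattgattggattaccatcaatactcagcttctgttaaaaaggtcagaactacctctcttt
The Ldha window holds the motif in 3 places, 2 of them as CACGTG, which reads the same on both strands. Pgk1 holds it in 2 places and Aldoa in 1, and 2 of the 3 Aldoa starts have a window with the motif. The letters are not in the Slc2a2 window. Of the 30 tested genes in the table (Gys2 is not listed), 13 hold the motif at 1 start or more: 7 of 12 isoforms not particular to liver, 3 of 10 liver isoforms and 3 of 8 others. Over all 27025 genes of the table the share was 18.5%. A gene with more starts has more windows in which to match. Counted by start, 9 of 21 windows of isoforms not particular to liver held the motif (42.9%), 3 of 14 of liver isoforms and 3 of 11 of the others. The share of all starts was 16.6%. Genes with the motif rose in 5 of 13 and fell in 4 at 40 mg/kg of SP70, and genes without it rose in 4 of 17 and fell in 8. With SP30, genes with the motif rose in 6 of 13 and fell in 5, and genes without it rose in 4 of 17 and fell in 9. Of all genes tested, 15.6% rose and 28.8% fell at 40 mg/kg of SP70, and 18.1% rose and 31.3% fell with SP30. These shares were not counted apart for all tested genes with and without the motif, and the split was not tested. A match is a description of the letters, not a bound site.

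Among liver isoforms, those by which glucose and fructose enter metabolism fell. Slc2a2, the liver glucose transporter GLUT2, had 23092, 21168, 28798, 30947 and 22134 in control mice and 13401, 20366, 31041, 17456 and 19921 at 10 mg/kg of SP70. It had 12266, 11669, 13224, 11441 and 9361 at 20 mg/kg and 13584, 9416, 16745, 12200.0 and 8535 at 40 mg/kg. SP30 mice had 7084, 12251, 13072, 10884 and 13145. The last 3 groups lay wholly below the control mice, at −1.11 ± 0.18, −1.09 ± 0.18 and −1.18 ± 0.18 (adjusted p = 5.75e-06, 6.36e-06 and 1.34e-06), which are 2.16-fold, 2.12-fold and 2.26-fold lower. SP300 mice had 31893, 32045, 28860.1, 21248 and 29478 at 10 mg/kg and 18185, 13623, 18402, 16068 and 15810.2 at 200 mg/kg, all of the last below the control mice (−0.61 ± 0.18, adjusted p = 0.00889). Gckr, which codes for the protein that holds glucokinase inactive in the nucleus, fell, at −0.45 ± 0.13, −0.50 ± 0.13 and −0.37 ± 0.13 at 20 and 40 mg/kg of SP70 and with SP30, where the call was lost without control mouse 4 (−0.32, adjusted p = 0.0515) or SP30 mouse 1 (−0.26, adjusted p = 0.0912). Khk, the fructose-phosphorylating ketohexokinase, fell, at −0.41 ± 0.10, −0.43 ± 0.10 and −0.43 ± 0.10 in the same groups. All 3 genes also passed with SP300 at 200 mg/kg, but Gckr (−0.34) and Khk (−0.28) did not without mouse 2 of that group (−0.30 and −0.24, adjusted p = 0.103 and 0.0804). The Gckr call was also lost without control mouse 1, 2, 3 or 4 or SP300 mouse 1, 3 or 4 (adjusted p = 0.0501 to 0.109). The Khk call was lost without control mouse 1, 2 or 3 (adjusted p = 0.0513 to 0.0585). Under quantile normalization and with no filter on low signals Gckr did not pass either (adjusted p = 0.0561 and 0.0571). Centring arrays on their medians lost the SP300 calls of both Gckr and Khk (−0.28 and −0.23, adjusted p = 0.144 and 0.118).

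Liver-type phosphofructokinase and pyruvate kinase moved in opposite directions. Pfkl rose by 0.98 ± 0.13 at 40 mg/kg of SP70 (adjusted p = 9.19e-08) and by 0.62 ± 0.13 with SP30 (adjusted p = 0.000108). Pfkl signals ran from 1495 to 2366 and 1133 to 1697 there, against 742 to 1060.2 in control mice, and its changes were 0.01 at 20 mg/kg of SP70 and 0.01 with SP300 at 200 mg/kg. Pklr had 2905, 3945, 4871, 3333 and 3552 in control mice, 2457, 2824, 4918, 2082 and 3947 at 10 mg/kg of SP70, 2471, 2280.2, 2599, 2100.4 and 2022 at 20 mg/kg and 3162, 1605, 3344, 3013 and 1932 at 40 mg/kg. The Pklr signals at 20 mg/kg lay wholly below those of control mice, at −0.68 ± 0.19 (adjusted p = 0.0045), and those at 40 mg/kg overlapped them, at −0.55 ± 0.19 (adjusted p = 0.0196). SP30 mice had 1947, 2461, 3013, 1946 and 3245 (−0.57 ± 0.19, adjusted p = 0.0136). SP300 mice had 2937, 3954, 3319, 3955 and 3909.6 at 10 mg/kg and 2818, 2312, 2654, 2464 and 2763 at 200 mg/kg (−0.50 ± 0.19, adjusted p = 0.0469). The Pklr call at 40 mg/kg of SP70 was lost under quantile normalization (−0.43, adjusted p = 0.0554), for the mean of its probe sets (−0.58, adjusted p = 0.0917), and without control mouse 3 or SP70 mouse 2 or 5 (−0.44, −0.39 and −0.45, adjusted p = 0.0746, 0.102 and 0.0702). Without control mouse 3 the SP30 call was lost too (−0.47, adjusted p = 0.0542). The SP300 call was lost without any 1 mouse of its group or of control mice 2 to 5 (−0.39 to −0.53, adjusted p = 0.0513 to 0.148). That call was also lost with no filter on low signals, under quantile normalization and with centred arrays (adjusted p = 0.0633, 0.0706 and 0.11).

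Within each mouse, log2 Pkm minus log2 Pklr, set to 0 at the control mean, averaged 2.05 ± 0.56 at 40 mg/kg of SP70 and 2.19 ± 0.36 with SP30, against 0.00 ± 0.78 in control mice (SD, n = 5 each). The mice ran from 1.37 to 2.81 and 1.62 to 2.57, against −1.12 to 0.80 in control mice. The mean was 1.12 ± 0.65 at 10 mg/kg of SP70, 1.41 ± 0.34 at 20 mg/kg, 0.24 ± 0.50 with SP300 at 10 mg/kg and 1.09 ± 0.27 at 200 mg/kg. The ratio shows unequal change of the 2 signals and not the amounts of the isoforms.

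**Figure D3:**
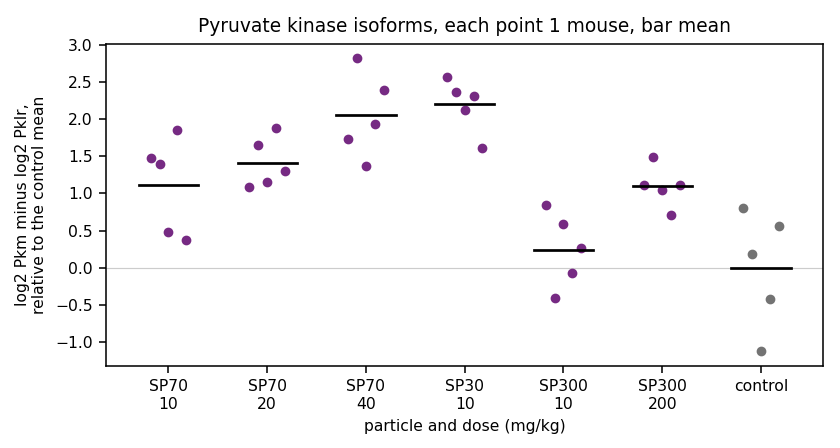
Log2 Pkm minus log2 Pklr relative to the control mean (vertical axis), each point 1 mouse and each bar the mean of 5, for the 6 treated groups and control. All mice given 40 mg/kg of SP70 or SP30 stand above the highest control mouse, and the SP300 10 mg/kg mice overlap the control mice.

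Genes of glycogen metabolism fell. Gys2, liver glycogen synthase, ran from 5000.0 to 8039 at 40 mg/kg of SP70 and 4119 to 6376 with SP30, against 7972 to 11725 in control mice, at −0.64 ± 0.13 and −0.81 ± 0.13 (adjusted p = 0.000109 and 3.02e-06). At 20 mg/kg of SP70 Gys2 was at −0.77 ± 0.13. Pygl, the phosphorylase that breaks liver glycogen down, fell, at −0.55 ± 0.10 and −0.60 ± 0.10 at 20 and 40 mg/kg of SP70 and −0.48 ± 0.10 with SP30. Gbe1, the branching enzyme, fell, at −0.62 ± 0.15, −0.52 ± 0.15 and −0.62 ± 0.15 in these groups, and Ugp2, which makes the UDP-glucose that glycogen synthase uses, fell, at −0.69 ± 0.14 at 20 mg/kg and −0.58 ± 0.14 with SP30. At 40 mg/kg Ugp2 was at −0.28 ± 0.14 (adjusted p = 0.0899), and it passed without SP70 mouse 3 (−0.40, adjusted p = 0.0127). All 4 glycogen genes fell with SP30 and at 20 mg/kg of SP70, and 3 of 4 at 40 mg/kg of SP70 and with SP300 at 200 mg/kg. Genes of synthesis and of breakdown thus both fell. With SP300, Ugp2 was at −0.34 ± 0.14 (adjusted p = 0.0559). It passed for the mean of its probe sets (−0.58, adjusted p = 0.00297) and without SP300 mouse 1 (−0.40, adjusted p = 0.0284). It also passed with a stricter filter, with a block for mouse number and with only this group and control fitted (adjusted p = 0.0158 to 0.0436). The SP300 call of Gbe1 (−0.44) was lost without control mouse 3 (−0.41, adjusted p = 0.0515) or SP300 mouse 2 (−0.35, adjusted p = 0.0864). Centred arrays lost it too (−0.39, adjusted p = 0.0716).

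The gluconeogenic genes among the members had smaller changes. Pck1, cytosolic phosphoenolpyruvate carboxykinase, had 48198, 38546, 44326, 43474 and 42953 in control mice and 49885, 41956, 49848, 50968 and 55818 at 10 mg/kg of SP70. It had 43179.5, 40555, 50618, 38532 and 39797 at 20 mg/kg and 31790.3, 37319, 26373, 40663 and 33523 at 40 mg/kg. With SP30 the mice had 35045, 32039.9, 33890.4, 22483 and 33845. Pck1 fell at 40 mg/kg, at −0.37 ± 0.12 (adjusted p = 0.00951), and with SP30, at −0.48 ± 0.12 (adjusted p = 0.000814), where all mice lay below the control mice. SP300 mice had 53253, 49444, 60137, 48474 and 54014 at 10 mg/kg, all above the highest control mouse (0.29 ± 0.12, adjusted p = 0.252), and 51629, 43843, 37704, 48728 and 33163 at 200 mg/kg. Pcx, pyruvate carboxylase, rose by 0.27 ± 0.08 at 40 mg/kg of SP70, 0.46 ± 0.08 with SP30 and 0.30 ± 0.08 with SP300 at 200 mg/kg, the last not holding for the mean of its probe sets (0.18, adjusted p = 0.156). Fbp1, fructose-1,6-bisphosphatase, passed the threshold against control in no group, with changes of −0.13 to 0.09, and all its signals were in the brightest range. Slc37a4, which carries glucose 6-phosphate into the endoplasmic reticulum, passed against control with SP30 (0.28 ± 0.12, adjusted p = 0.0422). That call was lost without control mouse 1, 2 or 5 or SP30 mouse 3, 4 or 5 (0.21 to 0.27, adjusted p = 0.0757 to 0.144). It was also lost with no filter on low signals, with centred arrays and with only this group and control fitted (adjusted p = 0.059, 0.0612 and 0.107). Mitochondrial Pck2 had group means of 84.8 to 169.9, near or below the filter, and passed in no comparison.

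At the entry to the mitochondrial pathway, 3 of the 4 genes fell. Pdk2, a kinase that switches pyruvate dehydrogenase off, had 417, 368, 615, 298 and 465 with SP30, against 1231, 1134, 1086, 1157 and 1039.8 in control mice. SP70 mice had 844, 853, 1200.3, 744 and 968 at 10 mg/kg, 655, 673, 647, 509 and 741 at 20 mg/kg and 687, 667, 860.4, 655 and 666 at 40 mg/kg. SP300 mice had 1009, 1307, 1363, 969 and 1482 at 10 mg/kg and 689.7, 645, 852, 781 and 557 at 200 mg/kg. All SP30 mice lay below the control mice and below the mice given 40 mg/kg of SP70, at −1.40 ± 0.15 against control (adjusted p = 1.53e-09) and at −0.73 ± 0.15 against SP70 at 40 mg/kg (adjusted p = 0.00201). Pdk1 fell, at −0.55 ± 0.11, −0.79 ± 0.11, −0.85 ± 0.11 and −0.67 ± 0.11 at 20 and 40 mg/kg of SP70, with SP30 and with SP300 at 200 mg/kg. Pdha1, the catalytic alpha subunit of the dehydrogenase, fell, at −0.45 ± 0.08, −0.53 ± 0.08, −0.34 ± 0.08 and −0.35 ± 0.08 in the same groups.

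Pdk4, the isoform that fasting induces, followed another pattern. Its signals were 770.5, 573, 455, 218 and 302 in control mice, 499, 292, 415, 347 and 615 at 10 mg/kg of SP70, 573, 415, 493, 446 and 434 at 20 mg/kg and 765, 1497, 1003, 878 and 1115 at 40 mg/kg. The rise at 40 mg/kg was 1.25 ± 0.37 (adjusted p = 0.00603), with 4 of 5 mice above the highest control mouse. With SP30 the signals were 923, 382, 493, 136 and 294, spread on either side of control (−0.17 ± 0.37, adjusted p = 0.734). SP300 mice had 575, 739, 591, 1407 and 611 at 10 mg/kg and 548, 575, 2098, 1009.8 and 422 at 200 mg/kg (0.86 ± 0.37, adjusted p = 0.0767). The change at 200 mg/kg passed without control mouse 1 (1.08, adjusted p = 0.0336) or SP300 mouse 5 (1.08, adjusted p = 0.0340). The difference of SP30 was −1.43 ± 0.37 from SP70 at 40 mg/kg (adjusted p = 0.0164) and, from SP300 at 200 mg/kg, −1.04 ± 0.37 (adjusted p = 0.0335).

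The first experiment asked how the response depends on the dose of SP70. The slope over dose, with control as 0, passed for 23 of the 31 genes (9 rising, 14 falling), where 45.2% (14.8% higher, 30.4% lower) of all genes passed. The steepest slopes were 0.041 ± 0.0028 log2 units per mg/kg for Aldoa, 0.033 ± 0.0048 for Pkm, 0.033 ± 0.0089 for Pdk4 and, downward, −0.028 ± 0.0043 for Slc2a2. Between 10 and 40 mg/kg, 16 genes differed (6 higher, 10 lower), where 30.6% (5.22% higher, 25.3% lower) of all genes passed. The median of all genes was −0.13 there. Quantile normalization, which moved that median to 0.00, gave 10 higher and 5 lower, and centring on the median gave 7 higher and 8 lower. Aldoa (1.39 ± 0.12), Hk1 (0.88 ± 0.18) and Pfkl (0.86 ± 0.13) were higher, and Slc2a2 (−0.74 ± 0.18) and Pck1 (−0.56 ± 0.12) were lower at 40 mg/kg.

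Between 20 and 40 mg/kg the genes that differed were all higher at 40 mg/kg. At 40 mg/kg 9 genes were higher and 0 lower, where 11.5% (2.79% higher, 8.69% lower) of all genes passed. The 9 were Aldoa (1.22 ± 0.12), Pdk4 (1.11 ± 0.37), Pfkl (0.96 ± 0.13), Hk1 (0.80 ± 0.18), Pkm (0.77 ± 0.20), Tpi1 (0.50 ± 0.08), Ugp2 (0.41 ± 0.14), Pcx (0.27 ± 0.08) and Pgam1 (0.24 ± 0.07). Slc2a2 differed between these doses by 0.03 with a 95% interval of −0.34 to 0.39, and Gys2 by 0.13 with −0.13 to 0.39. The count of 9 was 5 without mouse 3 of the 40 mg/kg group, and 5 to 7 without any 1 mouse.

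**Figure D4:**
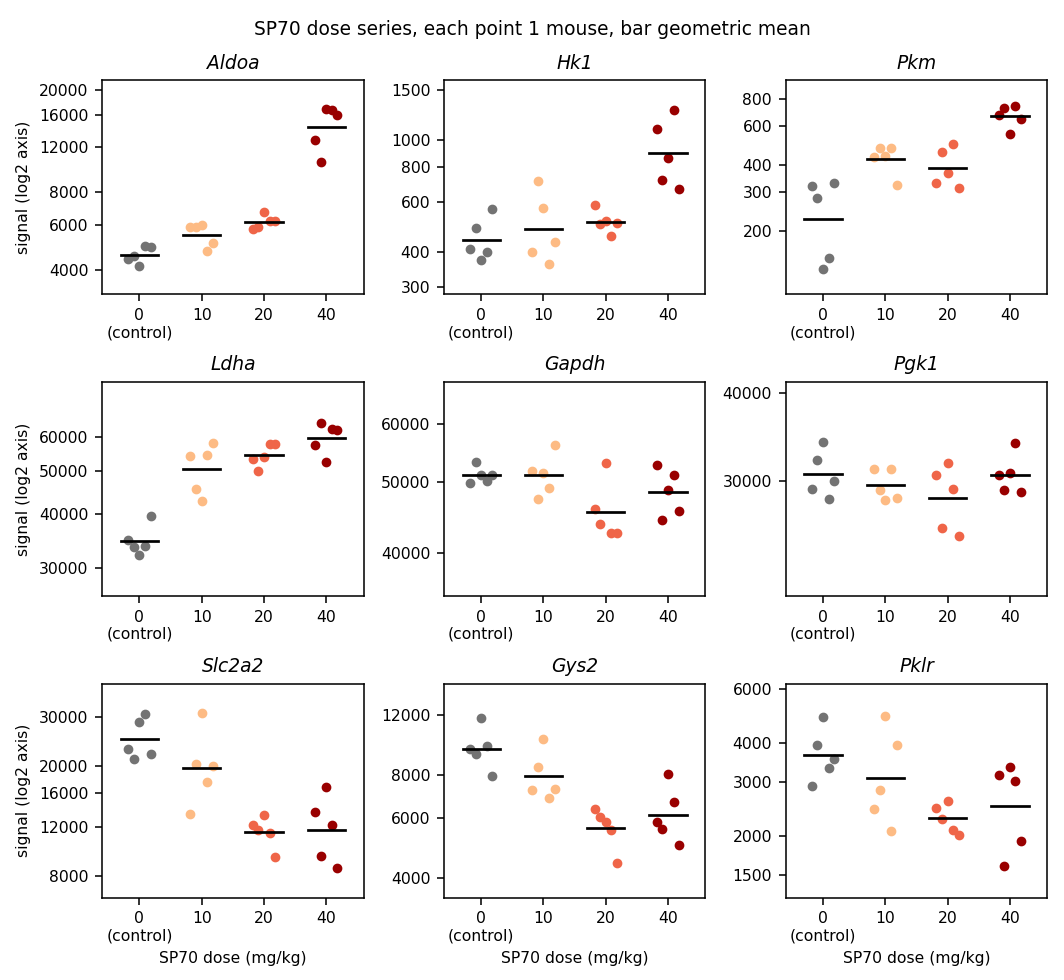
Signal (log2 axis) of 9 genes over the SP70 dose in mg/kg, each point 1 mouse and each bar the geometric mean of 5. Aldoa and Hk1 stand apart at 40 mg/kg, Ldha already at 10 mg/kg, Slc2a2 and Gys2 are lower from 20 mg/kg, and Gapdh and Pgk1 stay within a narrow range.

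The second experiment asked how the response depends on size. At 10 mg/kg, SP30 differed from SP300 in 26 of 31 genes (9 higher, 17 lower), where 51.8% (16.3% higher, 35.6% lower) of all genes passed, and from SP70 in 18 (7 higher, 11 lower), where 29% (5.41% higher, 23.6% lower) passed. SP70 differed from SP300 in 9 (4 higher, 5 lower), where 20.6% (10.5% higher, 10.2% lower) passed. Without SP300 mouse 3 the last count was 4, and without SP70 mouse 4 it was 5. For SP30 against SP70, centring on the median gave 8 higher and 7 lower, and quantile normalization gave 8 of each. Aldoa was higher with SP30 than with SP300 by 1.42 ± 0.12 and than with SP70 by 1.23 ± 0.12. For Pkm these differences were 1.41 ± 0.20 and 0.76 ± 0.20, and for Slc2a2 they were −1.37 ± 0.18 and −0.84 ± 0.18. SP70 exceeded SP300 by 0.99 ± 0.25 for Pfkp and 0.36 ± 0.08 for Ldha. At equal mass, particle number and total surface also differ between sizes and cannot be told apart from size.

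At the toxic doses, fewer genes differed between SP30 and SP70 than between either and SP300. SP30 at 10 mg/kg differed from SP70 at 40 mg/kg in 4 genes, where 5.71% (3.68% higher, 2.03% lower) of all genes passed: Hk3 and Slc37a4 (0.47 ± 0.12) were higher and Pdk2 and Pdk4 lower with SP30. Without SP30 mouse 4 that count was 1. For Aldoa the difference was −0.15 with a 95% interval of −0.39 to 0.08, and for Slc2a2 −0.09 with −0.46 to 0.27. SP30 differed from SP300 at 200 mg/kg in 15 genes (9 higher, 6 lower), where 29.2% (11.6% higher, 17.5% lower) of all genes passed, and SP70 at 40 mg/kg differed from SP300 at 200 mg/kg in 7 (6 higher, 1 lower), where 15.5% (5.04% higher, 10.4% lower) passed. Centring on the median gave 4 higher and 4 lower in the last comparison. Aldoa exceeded its SP300 level by 1.08 ± 0.12 with SP30 and 1.23 ± 0.12 with SP70. Pkm did so by 1.03 ± 0.20 and 0.90 ± 0.20, Hk1 by 0.80 ± 0.18 and 0.74 ± 0.18, and Pfkl by 0.61 ± 0.13 and 0.97 ± 0.13. Pck1 was lower than with SP300, at −0.45 ± 0.12 with SP30 and −0.34 ± 0.12 with SP70. SP300 at 200 mg/kg differed from SP300 at 10 mg/kg in 19 genes (3 higher, 16 lower), where 31.8% (9.41% higher, 22.4% lower) passed, with Slc16a1, Aldoa and Ldha higher (0.84 ± 0.22, 0.34 ± 0.12 and 0.31 ± 0.08).

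**Figure D5:**
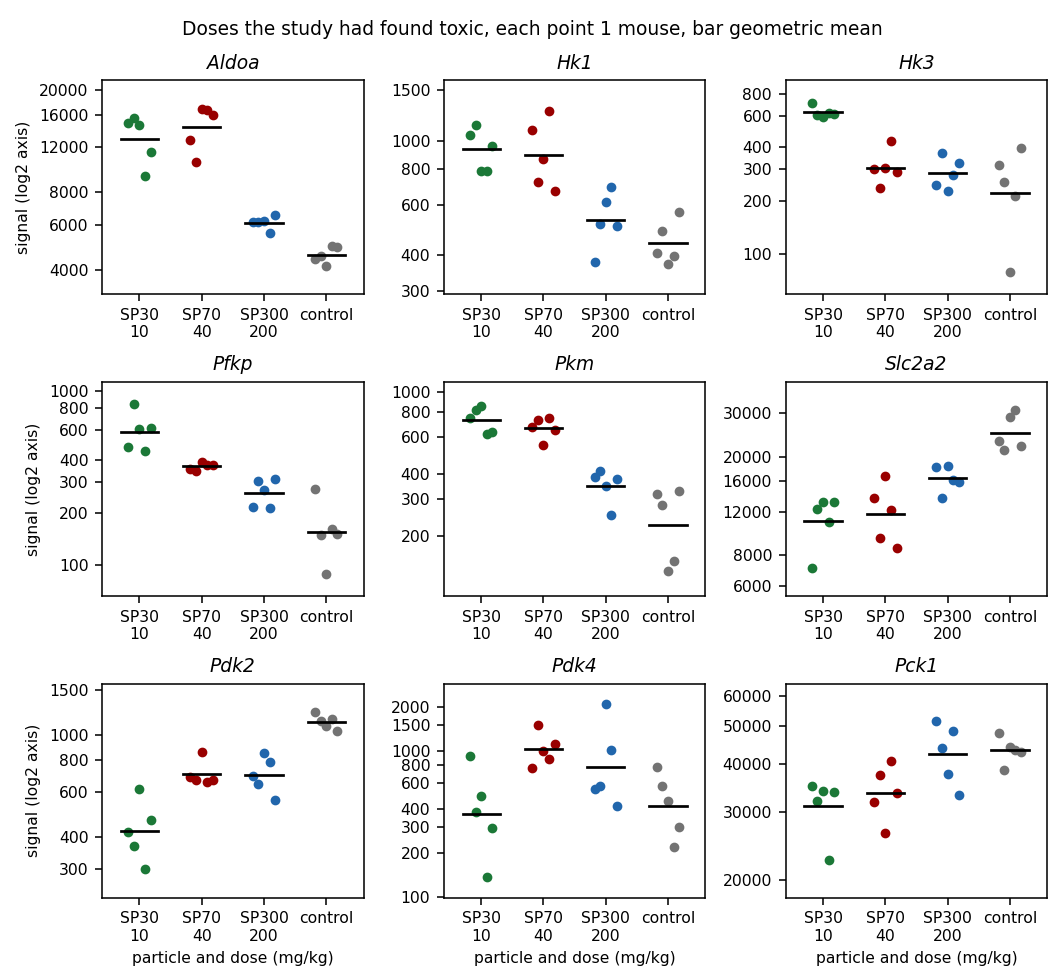
Signal (log2 axis) of 9 genes at the toxic doses of SP30, SP70 and SP300 (mg/kg under each name) and in control, each point 1 mouse and each bar the geometric mean of 5. Aldoa, Hk1 and Pkm are high with SP30 and SP70 and lower with SP300, Hk3 and Pdk2 set SP30 apart, and the SP30 points of Pdk4 lie around those of control.

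Other genes of the same pathways were taken from a list of 57, of which 46 were tested. They rose in 9 and fell in 18 at 40 mg/kg of SP70 (median −0.18, against −0.09 over all genes), rose in 12 and fell in 22 with SP30 (median −0.33, against −0.12), and rose in 4 and fell in 11 with SP300 at 200 mg/kg (median −0.13, against −0.06). Of all genes, 44.4% (15.6% higher, 28.8% lower), 49.3% (18.1% higher, 31.3% lower) and 30.7% (12.6% higher, 18.1% lower) passed in these comparisons, so that the count of 15 of 46 with SP300 was near the share of all genes. Pfkfb3, which makes the activator of phosphofructokinase, rose by 2.21 ± 0.33 at 40 mg/kg of SP70 and 2.63 ± 0.33 with SP30, but fell, at −1.63 ± 0.33 with SP300 at 200 mg/kg. The glucose transporters Slc2a3 and Slc2a1, of neurons and leukocytes and of most tissues, rose by 2.27 ± 0.27 and 1.50 ± 0.17 at 40 mg/kg of SP70. Hk2 rose by 1.60 ± 0.20, the lactate exporter Slc16a3 by 1.76 ± 0.52 and the pyruvate dehydrogenase phosphatase Pdp1 by 1.62 ± 0.22 with SP30. G6pc, the last enzyme of glucose release, fell, at −2.50 ± 0.25 at 40 mg/kg of SP70, −1.35 ± 0.25 with SP30 and −1.03 ± 0.25 with SP300 at 200 mg/kg. The transporters Slc2a5 and Slc2a9 fell, at −2.32 ± 0.43 and −1.54 ± 0.17, as did the phosphatase Pdp2, at −1.45 ± 0.20 with SP30. Ppp1r3b, which targets a phosphatase to glycogen, fell, at −1.40 ± 0.18 at 40 mg/kg of SP70.

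Of 16 regulators of liver glucose metabolism, 5 rose and 7 fell at 40 mg/kg of SP70 (median −0.05), 6 rose and 8 fell with SP30 (median −0.25), and 2 rose and 7 fell with SP300 at 200 mg/kg (median −0.11). The medians of all genes were −0.09, −0.12 and −0.06, and 44.4%, 49.3% and 30.7% of all genes passed. Irs1, an adaptor of the insulin receptor, fell, at −1.29 ± 0.16, −2.15 ± 0.16 and −2.67 ± 0.16 over the SP70 doses and −2.22 ± 0.16 with SP300 at 200 mg/kg, whereas its relative Irs2 rose by 1.26 ± 0.27 at 40 mg/kg. Ppargc1a, a coactivator of gluconeogenic genes, fell, at −2.07 ± 0.26 and −2.13 ± 0.26 at 40 mg/kg of SP70 and with SP30. Klf15 fell, at −1.88 ± 0.24, and so did Mlxipl, which codes for the glucose-sensing factor ChREBP, at −1.23 ± 0.13 at 40 mg/kg. Irs1, Irs2, Klf15 and Mlxipl passed in the same direction with SP30. Cebpa fell with SP300 at 200 mg/kg, at −0.72 ± 0.13, and also at 10 and 20 mg/kg of SP70 and with SP30 (−0.42, −0.49 and −0.43). Nr3c1, the glucocorticoid receptor gene, fell at 20 mg/kg of SP70, at −0.61 ± 0.11, and with SP300 at 200 mg/kg (−0.44). Hif1a rose by 1.05 ± 0.10, Sik1 by 0.84 ± 0.26, Crtc2 by 0.78 ± 0.19 and Cebpb by 0.71 ± 0.10 with SP30. Hif1a also rose over the SP70 doses (0.53, 0.44 and 0.58) and with SP300 at 200 mg/kg (0.27). Cebpb rose over the SP70 doses too (0.64, 0.39 and 0.63), and Sik1 and Crtc2 at 40 mg/kg of SP70 (0.64 and 0.54). Foxo1 was the 1 regulator that passed with SP300 at 10 mg/kg (0.70 ± 0.13, adjusted p = 0.00311).

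Known hypoxia targets outside glycolysis, 14 tested of 16, rose in 11 at 40 mg/kg of SP70 (median 1.15), in 9 with 1 lower after SP30 (median 1.12), and in 2 with 2 lower after SP300 at 200 mg/kg (median −0.15). The medians of all genes are those given for the regulators, as are the shares of all genes that passed. At 20 mg/kg of SP70, 3 of these targets rose and 2 fell. Of all genes, 39.8% (18.8% higher, 20.9% lower) passed there, so that the count of targets was near the share of all genes. The 3' over 5' signal ratio of Gapdh, a measure of RNA integrity, had group medians of 0.751 to 0.819, with 0.783 at 40 mg/kg of SP70, 0.815 with SP30 and 0.797 in control mice. The same ratio of Actb had group medians of 1.92 to 2.37. It ran from 1.97 to 2.19 at 40 mg/kg of SP70, 1.85 to 2.17 with SP300 at 10 mg/kg and 1.66 to 1.98 at 200 mg/kg, all wholly below the 2.23 to 2.49 of control mice, and from 1.88 to 2.34 with SP30. The part of this ratio in the changes was not tested.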

How the data were processed

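RNA from the livers of 35 mice was hybridised to 1 array each. The deposited table holds linear intensity values of 45101 probe sets, made by the authors with MAS5, a method that summarises the probes of a set into 1 signal; its version and any scaling of the arrays are not given in the sources used here. Gene names came from the platform annotation, which lists 1 gene for 34958 probe sets and several for 932, and 18194 genes had a probe set of their own. The highest-mean probe set of each gene was kept if its signal exceeded 165 on at least 5 arrays. Values were taken as log2(signal + 12.5), with 12.5 the 10th percentile of all values, and fitted with limma 3.58.1 in R 4.3.3 (one mean per group, moderated variances with a trend, contrasts between groups, Benjamini-Hochberg over 12670 genes, 2-sided). A fold change on this scale understates that of dim genes. No p-value was adjusted over the members alone. The fit was tested on simulated data.

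Values for every mouse are given for members with an absolute log2 fold change of at least 1 and an adjusted p under 0.05 in a comparison with control, and for Gapdh, Pklr, Pkm and Pck1. From the lists of other pathway genes and regulators, the genes named are the called ones with the largest changes, up to 6 in each direction. Members and lists were chosen with earlier results of these data known. Promoters (250 bases before the start) came from RefSeq, GRCm38.p6, and the motif search covered both strands. Alternatives changed the pseudocount, the filter, the normalization, the choice of probe set, the groups in the fit, a block for mouse number, and left out each mouse. Mice of different groups that share a number did not deviate together: their mean correlation was −0.000552 over 105 pairs, against 0.000135 for other pairs. The number of arrays limits the precision.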

Additional observations from a re-analysis of the deposited data

Results flagged for a closer look

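Pdk4 differed between SP30 and the other particle sizes at the toxic doses. Against control it rose with SP70 at 40 mg/kg (1.25, adjusted p = 0.00603). It did not pass with SP30 (−0.17, adjusted p = 0.734), where leaving out 1 mouse moved it from −0.495 to 0.1698, or with SP300 at 200 mg/kg (0.86, adjusted p = 0.0767). The differences were −1.43 (adjusted p = 0.0164, limma) from SP70 and −1.04 (adjusted p = 0.0335) from SP300. The SP30 mice of Pdk4 ranged from 136 to 923 and the SP300 200 mg/kg mice from 422 to 2098. The lowest SP30 signal, that of mouse 4, lay below the filter of 165. Without SP30 mouse 4, the count of genes that differed between SP30 and SP70 at 40 mg/kg was 1 instead of 4.

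In 15 of 217 sets of 5 mice, 1 for each gene and group, a single mouse stood apart from the other 4 by more than the 95% limit of Dixon's test, which chance passes in about 1 of 20. Among control mice, Gckr had a lowest signal of 5836, Aldoc of 1495, Pgam1 of 16444 and Pygl of 25225. Among SP70 mice these were the lowest Pkm signal of 322 at 10 mg/kg, the lowest Pfkp signal of 194 at 20 mg/kg and the highest Pdk2 signal of 860.4 at 40 mg/kg. Among SP30 mice they were the highest Hk3 signal of 713, the lowest Pck1 signal of 22483 and the lowest Gbe1 signal of 1904. With SP300 at 10 mg/kg the highest Pdk4 signal of 1407 and the lowest Slc2a2 signal of 21248 stood apart. At 200 mg/kg of SP300 the lowest signals of Ldha (39907), Gbe1 (2287) and Khk (17154) did so.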

How the results depend on the processing

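Across 10 alternatives of processing (pseudocount, filter, normalization, choice of probe set, groups in the fit, mouse number) every total of changed genes stayed within 1.5 times its value, but the split by direction did not. Quantile normalization gave 10 higher and 5 lower for SP70 at 40 against 10 mg/kg (6 and 10 in the main analysis), and 4 lower for SP70 at 10 mg/kg against control (2). Centring gave 8 lower for SP300 at 200 mg/kg against control (14) and 4 lower for SP70 at 40 mg/kg against SP300 at 200 mg/kg (1). With the replicate block for mouse number the counts were 5, 21 and 22 over the SP70 doses, 25 with SP30, 0 and 20 with SP300 at 10 and 200 mg/kg, and 8 between 40 and 20 mg/kg of SP70, so it moved no count by over 1.5 times; the numbers did not pair the mice. Leaving out 1 mouse gave 3 to 7 genes for SP70 at 10 mg/kg against control, 12 to 20 for SP300 at 200 mg/kg against control, 5 to 7 for SP70 at 40 against 20 mg/kg, 4 to 10 for SP70 against SP300 at 10 mg/kg and 1 to 4 for SP30 against SP70 at 40 mg/kg.

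Some changes that did not pass the threshold turned sign. Aldoa with SP300 at 10 mg/kg was −0.0324 for the mean of its probe sets. Gapdh at 10 mg/kg of SP70 was −0.1048 under quantile normalization and −0.0361 with centred arrays, and at 10 mg/kg of SP300 it was −0.016 under quantile normalization. Pck1 with SP300 at 200 mg/kg was 0.0149 under quantile normalization and 0.0244 with centred arrays. Without 1 mouse, Hk3 with SP300 at 200 mg/kg ranged from −0.0119 to 0.5265. Pdk4 ranged from −0.2399 to 0.2011 and from −0.0812 to 0.3598 at 10 and 20 mg/kg of SP70, and from −0.495 to 0.1698 with SP30. Hk1 and Gapdh at 10 mg/kg of SP70 ranged from −0.0245 to 0.2163 and from −0.0325 to 0.0286, and Pklr with SP300 at 10 mg/kg from −0.1133 to 0.0725. Pck1 ranged from −0.1001 to 0.0023 at 20 mg/kg of SP70 and from −0.1019 to 0.0577 with SP300 at 200 mg/kg. The cause was not tested.

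Of the genes called against control, 21 of 22 at 40 mg/kg of SP70 and 21 of 25 with SP30 passed under every alternative that tested them. With SP300 at 200 mg/kg these were 10 of 19, and at 10 mg/kg of SP70 they were 3 of 5. A gene that the stricter filter on low signals removed was not tested under that alternative and is not counted as lost. Low signals limit Pfkp, Pkm, Hk3 and Pck2, and the brightest ones Fbp1, Gapdh, Ldha and Pck1.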
